A study of Mus musculus with 6 samples.

Results

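The 9 genes described here encode homeodomain and paired box transcription factors of the eye field, the retinal progenitor pool and the optic stalk: Pax6, Rax, Six3, Six6, Lhx2, Meis1, Meis2, Otx1 and Pax2. They were taken by name, and every probe set that the array annotation assigns to one of them and to no other gene was used. Of the 9 genes, 8 had such a probe set, 19 probe sets in all of the 45037 on the array that are not controls. Pax2, the optic stalk member, had none, so its expression was not analysed here. RNA from mouse embryo retinas, 3 WT and 3 OC1-KO, was hybridised to Affymetrix whole-genome mouse arrays, with 1 array for each embryo and the embryos of each genotype numbered 1 to 3. OC1-KO embryos lack the Onecut1 transcription factor in the whole animal. The embryos, described as littermates, were untreated, at E14 by the labels (E14.5 in the design text), and of mixed background: the line came from R1 ES cells in a "Swiss" strain and was later crossed to C57Bl/6. Each value is a log2 MAS5 signal, a probe set's hybridisation signal on the log2 scale, so it ranks arrays for that probe set and not genes against each other.

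Six3, Six6, Rax, Lhx2 and Pax6 act together in the anterior neural plate to specify the eye field, and the same factors keep retinal progenitors dividing and competent later on. Pax6 is needed for progenitors to give rise to the full range of retinal neurons and persists in ganglion, amacrine and horizontal cells. Meis1 and Meis2 are homeodomain proteins of the TALE class that bind DNA with Pbx partners and act upstream of Pax6 in eye development. Otx1 is known for the pigment epithelium and the ciliary margin, and Pax2 for the optic stalk. Onecut1 is itself expressed in early retinal precursors and is required for horizontal cells, and the comparison asks whether the progenitor factors differ in its absence.

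Start regions of the members were searched on both strands for ATTGAT and ATTGAC, core letters of the sequence that Onecut proteins bind. The search covered 11 RefSeq windows (GRCm38.p6) from 250 bases before to 50 after a transcription start, belonging to 7 of the genes: Pax6, Six3, Six6, Lhx2, Meis1, Meis2 and Pax2. Of these 11 windows 1 held either core (9.09%), that of Six3, against 13.1% of 32851 windows of the same length (7.54% for ATTGAT alone). The Six3 window, chr17:85620584-85620883 on the plus strand, is shown because it is the single match among the windows searched, with the core in capitals 154 bases before the start.
Six3: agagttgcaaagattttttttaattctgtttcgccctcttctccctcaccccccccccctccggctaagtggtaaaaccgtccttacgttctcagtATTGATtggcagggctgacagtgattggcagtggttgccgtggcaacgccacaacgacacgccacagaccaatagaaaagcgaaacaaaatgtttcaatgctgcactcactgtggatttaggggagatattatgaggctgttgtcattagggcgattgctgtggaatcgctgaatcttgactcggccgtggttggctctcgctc
The Six6 window, chr12:72939632-72939931 on the plus strand, is shown beside it because Six6 is the closest relative of Six3 and its window held neither core.
Six6: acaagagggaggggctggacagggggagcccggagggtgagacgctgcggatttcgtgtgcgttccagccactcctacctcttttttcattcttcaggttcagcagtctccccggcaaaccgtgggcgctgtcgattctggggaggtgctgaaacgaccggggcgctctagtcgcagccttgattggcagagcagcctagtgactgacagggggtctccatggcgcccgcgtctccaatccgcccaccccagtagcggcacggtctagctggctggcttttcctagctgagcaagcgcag
A match of this kind describes letters in a window and is not a binding site.

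The tissue label was checked first. The 4 defining retinal markers with a probe set of their own were bright in all 6 arrays: Atoh7 at a log2 signal of 14.19 to 14.83, Sfrp2 at 13.66 to 14.58, Crx at 9.81 to 10.69 and Rax at 10.60 to 11.15. Rax is itself a member, so the check rests on Atoh7, Sfrp2 and Crx. On its brighter probe set Onecut1 lay between 8.76 and 9.25 in WT and between 8.31 and 9.67 in OC1-KO. No source used here places the Onecut1 probe sets inside or outside the deletion, so this signal checks nothing about the labels. One of the study's supplementary lists heads its WT and OC1-KO columns the other way round from the sample labels and another matches them. The labels were followed here, and the sign of each genotype difference rests on them. Embryo 3 stood apart in both genotypes: the summed linear signal of 14 lens genes was 22333 in WT 3 and 11772 in OC1-KO 3 against 341 to 526 in the other 4 arrays, and that of 7 red blood cell genes was 16587 and 23990 against 75.4 to 749.7. Of the red blood cell genes, Hbb-y was the 1 with a mean log2 signal over 7 in either genotype. Hba-a1 and Epb42 did not rise in embryo 3 in both genotypes. By array, 43.4% (OC1-KO 3) to 46.7% (OC1-KO 1) of probe sets exceeded a log2 signal of 7. The median linear signal was 85.0 in OC1-KO 3 and 97.3 to 104.1 in the other arrays.

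No member passed the test between OC1-KO and WT retinas. Of the 19 probe sets, 15 had a mean log2 signal over 7 in at least 1 genotype and entered the test with all 20888 such probe sets, and 4 did not: Pax6 1437816_at and 1425960_s_at, Six3 1426638_at and Meis1 1459423_at. None of the 15 had an adjusted p under 0.05 by limma (Benjamini-Hochberg over 20888 probe sets, of which 0% passed), and each had 1.00. Before adjustment, limma placed 0 of 15 under 0.05, against 1.01% of all probe sets. The methods' t-test also placed 0 of 15 there (1.51% of all), as did limma blocked on embryo number (0 of 15, 4.37% of all). In none of the 15 did the 3 OC1-KO values lie clear of the 3 WT values, which happened in 3.56% of all probe sets. In 3 of 15 the embryos of each number differed in the same direction, near the 23.4% over all. On the brightest probe set of each gene, 5 genes had a higher and 3 a lower OC1-KO mean. The median log2 difference was 0.02 against -0.00 for all 10526 genes, and a median size of difference of 0.05 against 0.08. In bulk retinas, fewer cells of a type and less RNA per cell cannot be told apart.

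**Figure D1:**
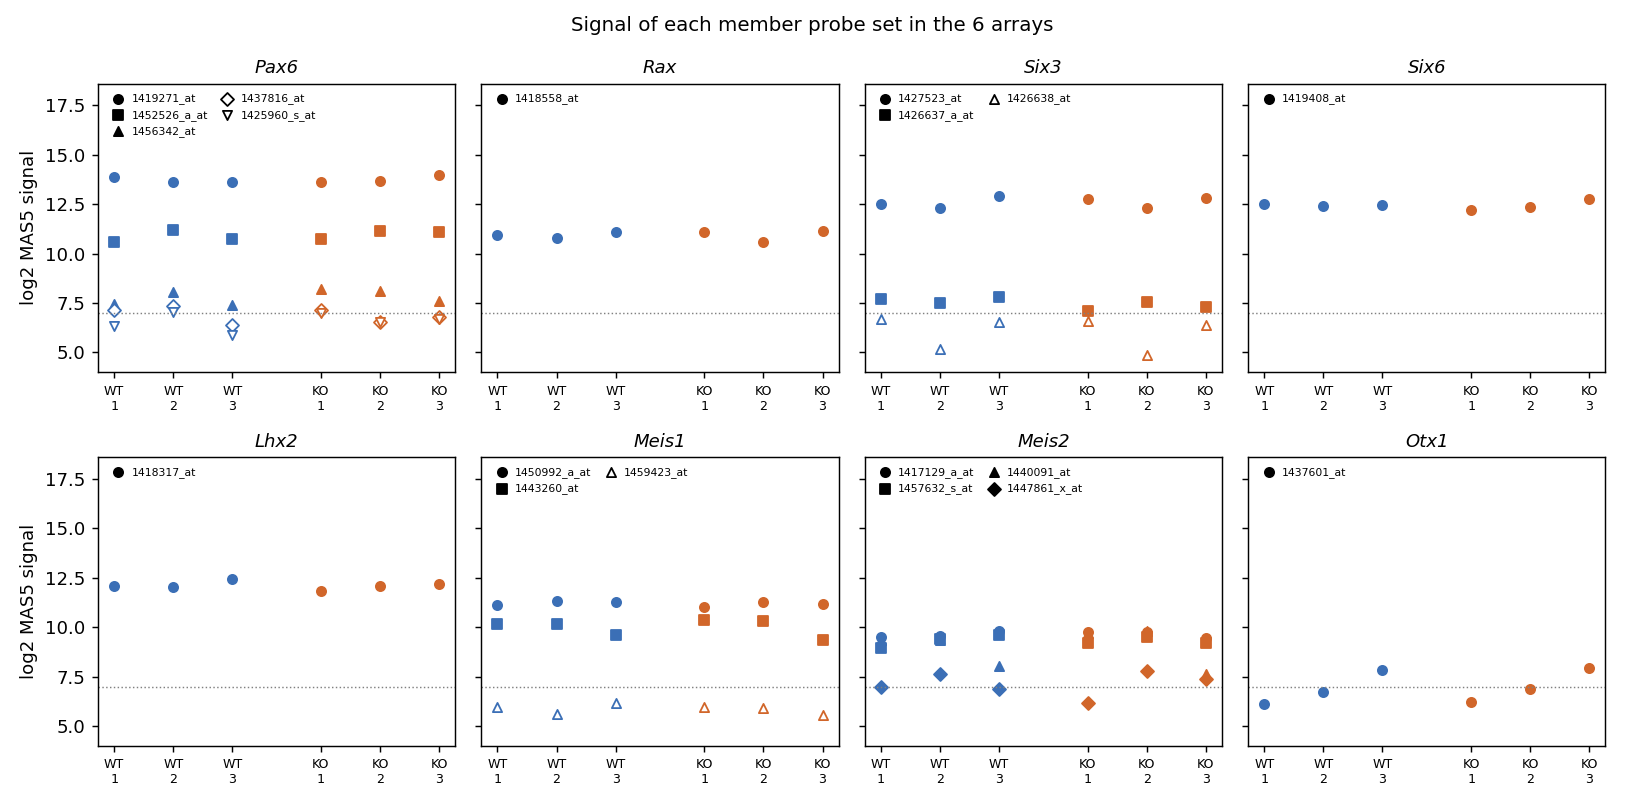
Log2 MAS5 signal (y axis) of the 19 member probe sets in each of the 6 arrays (x axis, 3 WT in blue and 3 OC1-KO in orange), with 1 panel for each gene and 1 marker shape for each probe set. Open markers are the 4 probe sets whose mean stays below the filter of 7 (dotted line) in both genotypes, heights of different probe sets are not comparable, and no probe set separates the genotypes.

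Pax6, the paired box and homeodomain factor at the centre of the network, had 5 probe sets. On the brightest, 1419271_at, embryos 1 to 3 read 13.87, 13.63 and 13.62 for WT and 13.61, 13.69 and 13.98 for OC1-KO. The highest value was an OC1-KO array and so was the lowest, and the ranges overlapped over most of their length. The WT mean was 13.71 ± 0.14 and the OC1-KO mean 13.76 ± 0.20 (SD, n = 3 each), a difference of 0.06 (SE 0.17) with a 95% interval of -0.34 to 0.45 by limma. The second probe set, 1452526_a_at, differed by 0.16 (SE 0.21), and by 0.022 to 0.33 with each array left out in turn. The third, 1456342_at, measured 7.44, 8.07 and 7.40 in WT and 8.20, 8.10 and 7.61 in OC1-KO. The OC1-KO array was higher than the WT array of the same embryo number each time, by 0.76, 0.03 and 0.21. The mean difference was 0.33 (SE 0.25, unadjusted limma p = 0.227, adjusted p of 1.00, two-sided exact permutation test p = 0.2). With each array left out in turn it lay between 0.21 and 0.55. The other 2 stayed below the filter at differences of -0.14 and 0.32. Across the 6 arrays the 3 probe sets over the filter had pairwise Pearson r of -0.50 to 0.50.

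Rax, the retinal homeobox gene that opens the eye field programme, read 10.96, 10.80 and 11.07 for WT and 11.10, 10.60 and 11.15 for OC1-KO. Both the lowest and the highest value were OC1-KO arrays, and WT lay between them. The difference was 0.01 (SE 0.20), with a 95% interval of -0.46 to 0.47. Lhx2, the LIM homeodomain factor that keeps the optic vesicle on the retinal path, gave 12.09, 12.05 and 12.46 in WT and 11.81, 12.07 and 12.17 in OC1-KO. Its means were 12.20 ± 0.23 and 12.02 ± 0.19 (SD, n = 3 each), a difference of -0.18 (SE 0.18) with an interval of -0.61 to 0.25. WT 3 was the highest array and OC1-KO 1 the lowest, and the other 4 interleaved. With each array left out in turn the Lhx2 difference lay between -0.25 and -0.047, and none of these passed the test.

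Six3 and Six6, the sine oculis class factors that repress posterior and Wnt programmes in the eye field and progenitors, had overlapping genotypes on their brightest probe sets. Six3 1427523_at gave 12.52, 12.31 and 12.90 in WT and 12.75, 12.29 and 12.82 in OC1-KO, a difference of 0.05 (SE 0.22; interval -0.48 to 0.58). In both genotypes embryo 2 was the lowest and embryo 3 the highest. Six6 1419408_at gave 12.51, 12.38 and 12.45 in WT and 12.22, 12.37 and 12.74 in OC1-KO, a difference of -0.00 (SE 0.18; interval -0.42 to 0.41). Its spread was 0.06 (SD, n = 3) among WT and 0.26 among OC1-KO embryos, so the OC1-KO arrays lay on both sides of WT.

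The dimmer Six3 probe set over the filter, 1426637_a_at, had the smallest unadjusted p of the 15. It measured 7.71, 7.49 and 7.78 in WT and 7.11, 7.54 and 7.28 in OC1-KO, with OC1-KO 1 and OC1-KO 3 below every WT array and OC1-KO 2 among them. The difference was -0.35 (SE 0.17; interval -0.76 to 0.06), with an unadjusted limma p of 0.0845, an adjusted p of 1.00 and a two-sided exact permutation p = 0.2. Without OC1-KO 2 the difference was -0.46 and the unadjusted limma p 0.0464, with an adjusted p of 1.00. The brightest Six3 probe set differed by 0.05, so the 2 probe sets of this gene did not share a direction, and their r over the 6 arrays was -0.16.

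Meis1 and Meis2, the TALE members, overlapped between genotypes on every probe set over the filter. Meis1 1450992_a_at gave 11.14, 11.31 and 11.27 in WT and 11.02, 11.28 and 11.19 in OC1-KO, a difference of -0.08 (SE 0.15; interval -0.43 to 0.27) that had the same sign in each of the 3 embryo numbers. Meis2 1417129_a_at gave 9.50, 9.58 and 9.80 in WT and 9.76, 9.76 and 9.45 in OC1-KO, a difference of 0.03 (SE 0.17; interval -0.36 to 0.43). The lowest and the highest Meis2 values came from the embryos numbered 3, OC1-KO 3 and WT 3. The other 4 probe sets of this pair over the filter differed between the genotypes by -0.04 to 0.12, with SE of 0.22 to 0.65.

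Otx1, the ciliary margin and pigment epithelium member, has 1 probe set, 1437601_at, which read 6.10, 6.71 and 7.84 for WT and 6.23, 6.87 and 7.95 for OC1-KO. The OC1-KO array exceeded the WT array of the same number each time, by 0.12, 0.16 and 0.12, while the values within a genotype spread over far more. Its mean exceeded 7 in OC1-KO alone (7.02 ± 0.87 against 6.88 ± 0.88 in WT, SD, n = 3 each). The difference was 0.13 (SE 0.56; interval -1.19 to 1.45). With the embryo number as a block the SE was 0.11 and the unadjusted limma p 0.262, with an adjusted p of 1.00. Over the brightest probe sets of the other 7 genes, the 95% intervals ran from -0.61 to 0.58, so a change beyond 1.49-fold up or to under 0.656 of WT lies outside all of them. Several other probe sets of these genes had wider intervals, as far as -1.42 to 1.66 on Meis2 1440091_at. The bound therefore covers the brightest probe sets alone. It and these intervals come from the fit without the embryo number. With the number as a block the SE of Meis2 1440091_at was 0.19 in place of 0.65. That of Meis1 1443260_at was 0.13 in place of 0.31.

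**Figure D2:**
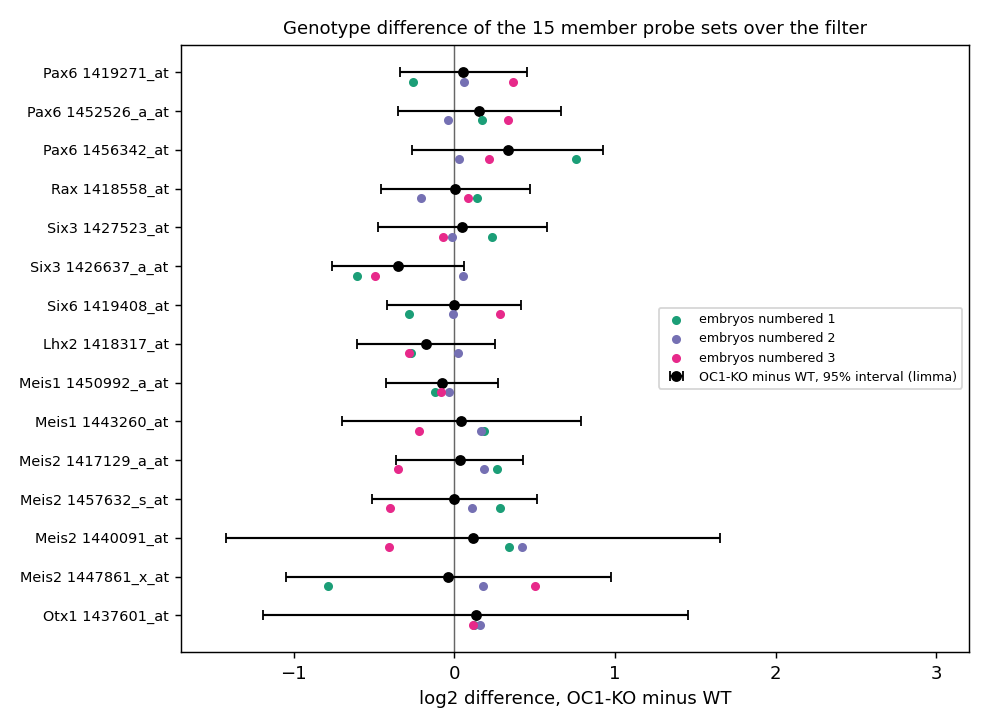
Log2 difference between OC1-KO and WT (x axis) for the 15 member probe sets over the filter, with black points for the mean over 3 arrays a genotype and bars for limma's 95% interval. Coloured points give the difference between the 2 arrays of each embryo number, and every interval spans 0.

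By embryo number, Otx1 and 1 Meis2 probe set passed the test. A limma fit with genotype and embryo number as terms gave an adjusted p under 0.05 for the number in 2 of 15 member probe sets, against 5.32% of all 20888. At an unadjusted p under 0.05 it was 6 of 15, against 31.9% of all, a share near that of the array as a whole. Both arrays of the embryos numbered 3 lay above or below the other 4 in 5 of 15 member probe sets, near the 38.4% over all. These were Otx1, Lhx2 and the brightest Six3 probe set above, and Meis1 1443260_at and Meis2 1440091_at below. The labels do not say what embryos of the same number share. The sample records of the embryos numbered 3 are numbered in a block apart from those of the other 4, and the labels give no reason. With no filter on signal, or without any 1 array other than WT 1, 0 members passed for the number, and without WT 1 it was 3.

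Otx1 in embryo 3 exceeded the mean of embryos 1 and 2 by 1.43 on the log2 scale in WT and by 1.40 in OC1-KO (adjusted p = 0.0399 for the number, limma F test). Of the 6 arrays only the pair from embryo 3 exceeded the filter of 7 for Otx1, so it was tested through the embryo in which it is high, and its count among members called for the number is no support. Of 9 optic stalk, ventral and ciliary margin genes over the filter, 6 were higher in embryo 3 in both genotypes and 3 went opposite ways. Also higher in both genotypes were 6 of 10 Eya, Dach and Tle genes, 3 of 5 TALE partners and 3 of 5 LIM cofactors and Lhx2 relatives. So were 5 of 10 other progenitor factors, 1 of 3 proneural genes and 1 of 4 paralogs. Lower in both genotypes were 2 Eya, Dach and Tle genes, 1 TALE partner, 3 other progenitor factors and 1 paralog. In the other lists it was 0. The share over all genes was not counted, so these counts are no result about any list. The genes of the ciliary margin list named next were chosen after their values were seen. In embryo 3 Msx1, a homeobox gene of the ciliary margin, exceeded the mean of embryos 1 and 2 by 1.04 in WT and 1.40 in OC1-KO. Mitf, the pigment epithelium regulator, did so by 1.01 and 1.13. The Mitf mean exceeded the filter in OC1-KO alone, and Mitf read 6.36 and 6.72 in WT 1 and 2. Of 46 genes of the network lists below, 2 had an adjusted p under 0.05 for the number (limma F test), against 5.32% of all probe sets. These were Msx1 and Hes5, a Notch effector of progenitors, and the count is no result about the lists. Msx1 read 6.55 and 6.94 in WT 1 and 2 and 6.71 and 7.17 in OC1-KO 1 and 2, so like Otx1 it passed the filter through embryo 3. Hes5 was lowest in embryo 1, at 8.64 in WT and 9.01 in OC1-KO, against 10.41 to 10.85 in the other arrays. Beside Otx1, the summed signal of 10 pigment epithelium genes in embryos 1 to 3 was 496, 357 and 963 in WT and 642, 840 and 2229 in OC1-KO. It was higher in OC1-KO at each embryo number, a difference that was not tested. Of the 10 genes, Dct, Pmel and Ttr had a mean over the filter and the other 7, Rpe65, Tyr and Tyrp1 among them, did not. The summed signal of 10 periocular mesenchyme genes was 3163 in WT 3 and 2673 in OC1-KO 3 against 515 to 731 in the other arrays. Of these genes Col1a2 was the 1 over the filter, and 4 of 14 lens genes, Cryba1, Cryba2, Crybb1 and Crybb3, were over it. Their part in the Otx1 signal was not tested.

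Meis2 1440091_at read 9.35, 9.38 and 8.03 for WT and 9.69, 9.80 and 7.62 for OC1-KO. Embryo 3 was lower than the mean of the other 2 by a log2 difference of -1.34 in WT and -2.13 in OC1-KO (adjusted p = 0.0404, limma F test). On the brightest Meis2 probe set the same differences were 0.26 and -0.32, on 1457632_s_at 0.46 and -0.14, and on 1447861_x_at -0.41 and 0.40, so both genotypes were lower on 1 of the 4 Meis2 probe sets over the filter. Meis1 1443260_at was also lower in embryo 3, at -0.58 in WT and -0.97 in OC1-KO (limma adjusted p = 0.0679), while Meis1 1450992_a_at differed by 0.04 in each genotype. Across the 6 arrays, Meis1 1443260_at and Meis2 1440091_at, a pair picked for its fall in embryo 3, had a Pearson r of 0.996. Between the brightest probe sets of the same 2 genes r was 0.02, and all other Meis1 and Meis2 pairs over the filter ran from -0.19 to 0.83. These points share their arrays. The 3' to 5' log2 ratio of the Actb control probe sets was 0.66 in WT 3 and 0.45 in OC1-KO 3 and 0.76 to 1.11 in the other 4 arrays, and its part in these signals was not tested.

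**Figure D3:**
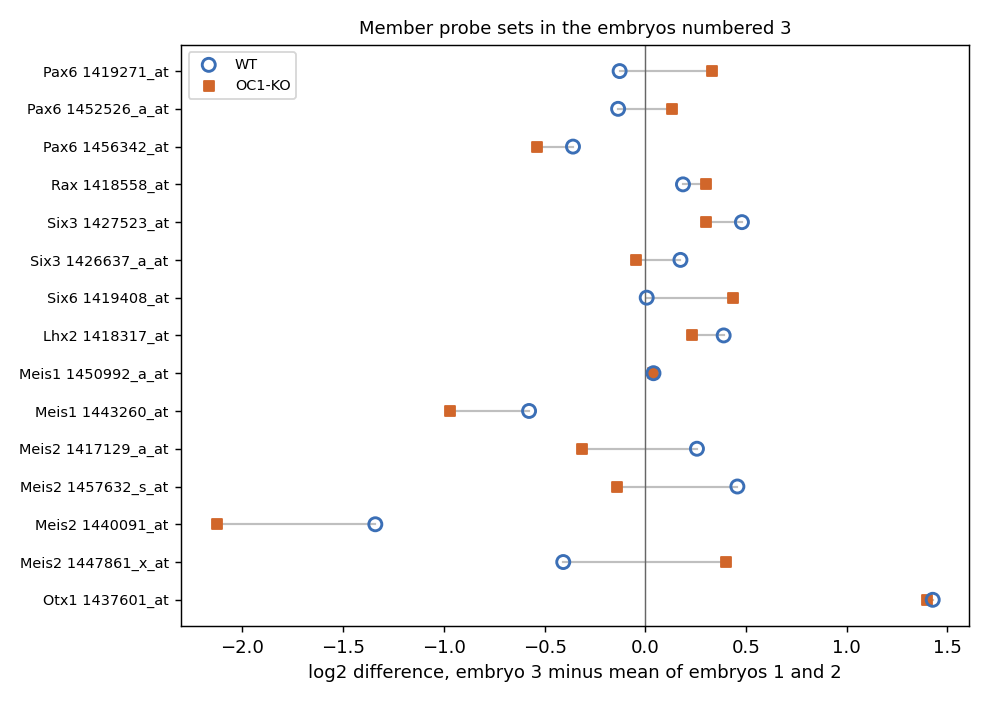
Log2 difference between embryo 3 and the mean of embryos 1 and 2 (x axis) for the 15 member probe sets over the filter, in WT (open blue circles) and OC1-KO (orange squares). Otx1 lies at 1.43 and 1.40, Meis2 1440091_at at -1.34 and -2.13, and the other Meis2 probe sets lie between -0.41 and 0.46.

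The partners and neighbours of these factors were read from 7 lists with 64 genes. Of these, 59 had a probe set of their own and 46 exceeded the filter on the brightest. In OC1-KO, 26 of the 46 had a higher and 20 a lower mean than in WT. None had an adjusted p under 0.05 by limma. Before adjustment, limma and the methods' t-test each placed 0 under 0.05, and limma blocked on embryo number placed 2, or 4.35%, close to the 4.37% of all probe sets. These were Mitf and Foxd1, a forkhead factor of the temporal retina, at differences of 0.72 and -0.40, and at that share they are no result about the lists. The Mitf mean exceeded the filter of 7 in OC1-KO alone (7.59 against 6.88 in WT). Mitf was thus tested through the group in which it is high, and its difference is no support.

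The TALE partners of Meis had 2 of 5 means higher and a median log2 difference of -0.07. Pbx3, a DNA-binding partner of Meis proteins, differed by -0.10 (SE 0.17) and Pbx2 by -0.07 (SE 0.24). Among the Eya, Dach and Tle genes, the coactivators and corepressors of Six3 and its relatives, 4 of 10 were higher, with a median of -0.08. Tle4, a Groucho corepressor, differed by 0.04 (SE 0.14) and Tle1 by -0.08 (SE 0.21). For the LIM cofactors and Lhx2 relatives the count was 2 of 5, with a median of -0.00. Ldb1, the bridging cofactor of LIM homeodomain proteins, differed by -0.00 (SE 0.23) and Lmo4, which competes for it, by -0.05 (SE 0.19).

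Other progenitor factors had 7 of 10 means higher and a median of 0.015. The cyclin Ccnd1 differed by 0.11 (SE 0.24) and the Wnt modulator Sfrp2 by 0.03 (SE 0.27). All 3 proneural genes measured downstream of Pax6 had higher means, with a median of 0.09: Atoh7 differed by 0.06 (SE 0.21) and Neurod1 by 0.11 (SE 0.22). Optic stalk, ventral and ciliary margin genes had 6 of 9 means higher and a median of 0.16, with the ventral homeobox gene Vax2 at 0.22 (SE 0.21) and the zinc finger gene Zic1 at 0.16 (SE 0.34). Paralogs of the members were split 2 and 2 at a median of -0.01, with Otx2, which starts photoreceptor fate and pigment epithelium, at 0.04 (SE 0.18) and the photoreceptor factor Crx at -0.05 (SE 0.27). The median over all genes was -0.00 in each case.

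**Figure D4:**
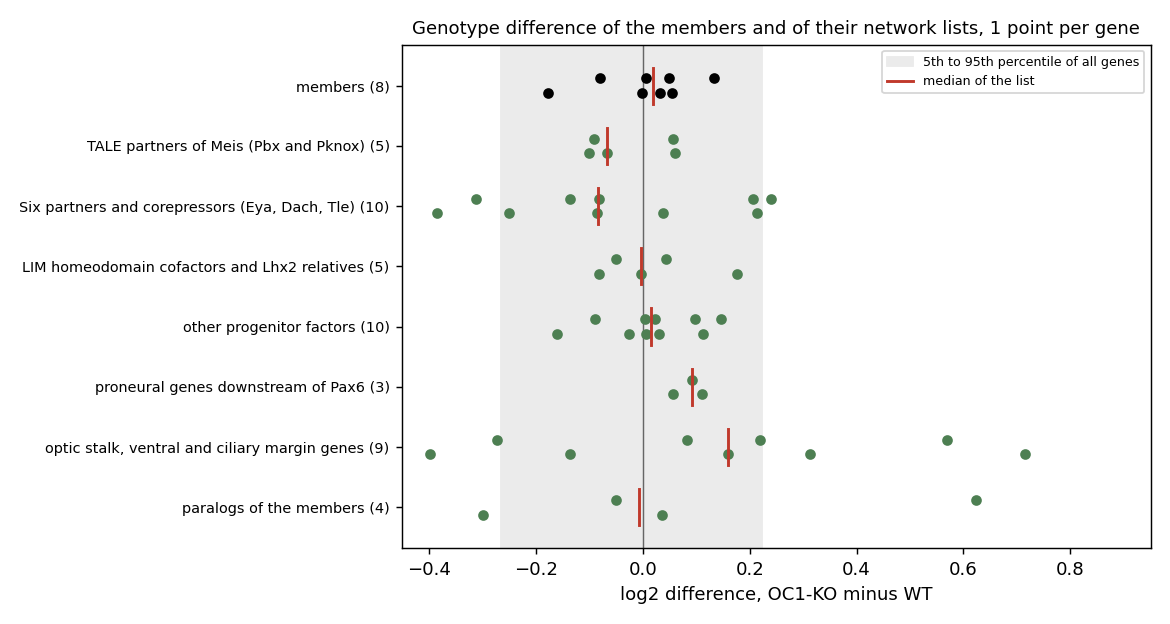
Log2 difference between OC1-KO and WT (x axis) on the brightest probe set of the 8 members (black) and of 46 genes in 7 network lists (green), 1 point for each gene, with the number of genes in brackets and a red bar at the median. Grey marks the 5th to 95th percentile over 10526 genes, -0.27 to 0.22, which holds all 8 members.

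Likeness of pattern was read from Pearson r between brightest probe sets over the 6 arrays, taking the 2 closest genes that are no members. Pax6 was closest to Hnrnpf (r of 0.995) and Srgap2 (0.989), Rax to Zbtb12 (0.994) and Map2k2 (0.991), Six3 to Rmi2 (0.996) and Acin1 (0.994), and Six6 to Adh5 (0.990) and Trappc1 (0.989). Lhx2 was closest to Fam163a (0.989) and Snx33 (0.986), Meis1 to Cops5 (0.998) and Slain1 (0.997), Meis2 to Clstn2 (0.986) and Tmem241 (0.982), and Otx1 to Hdgfl2 (0.997) and Tmem88 (0.996). Each r was the highest among 10526 genes over 6 arrays that share embryo numbers, so it is a description with no test. No 2 members shared a closest gene.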

How the data were processed

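Total RNA from the retinas of single embryos was amplified, biotinylated and hybridised to Affymetrix mouse genome arrays. The authors background-adjusted and normalized the arrays with MAS5 in the affy R package (version not given in the sources used here) and deposited linear signal intensity for 45101 probe sets, in which each array has a 2% trimmed mean of 500. Here log2 was taken, 64 control probe sets were left out, and the 20888 with a mean over 7 in WT or OC1-KO were kept, as in the methods. Genes were named from the platform annotation: 34945 probe sets carry 1 symbol, 932 several and 9160 none; 34741 matched RefSeq (GRCm38.p6) by Entrez ID and 0 symbols changed. A gene is read on its brightest probe set.

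Genotypes were tested with lmFit and eBayes of limma 3.58.1 (R 4.3.3), using Benjamini-Hochberg adjustment over the kept probe sets. An exact permutation test of 3 against 3 arrays, whose smallest two-sided p is 0.1, was added for single members. The methods' t-test (equal variances), embryo number as a block, an F test of the number, quantile normalization, median centring, other filters and an offset of 16 were also run. The motif search left out chromosome 18. Fits were tested on simulated data. Scipy 1.17.1, pandas 2.3.3 and matplotlib 3.10.9 were used in Python 3.11.15. Arrays of the same number pair: their deviations from the genotype means correlate at 0.51, 0.57 and 0.67, those of different numbers at -0.44 to -0.04. Deviations within a genotype cancel out, so the negative values follow from the positive ones and are no separate support. The pairing rests on the values, not on the labels. Named genes are all members, the 2 brightest genes of each list (none had a limma p under 0.05), and the 2 genes closest to each member in pattern. Marker genes of the tissue and of other cell types come from fixed lists, and Msx1, Mitf, Hes5 and Foxd1 were singled out after their values were seen. The members and lists were chosen with earlier results of these data known. Precision is limited by the number of arrays, 3 in each genotype.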

Additional observations from a re-analysis of the deposited data

How the results depend on the processing

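No member probe set, member gene or list gene had an adjusted p under 0.05 for genotype in any setting run. At an unadjusted p under 0.05, 0 to 1 member probe sets were called with 1 array left out. The list genes numbered 0, and 1 with median centring, 2 with the replicate block, 6 in the embryos numbered 1 and 2 alone and 0 to 4 with 1 array left out (4 without OC1-KO 3, 2 without WT 3). Pairing by the replicate block changed no other call. For embryo number, member calls went from 2 to 0 with no filter on signal and ran from 0 to 3 with 1 array left out (3 without WT 1, 0 without each of the others). Calls over all probe sets went from 1111 to 0 with no filter, 2308 with a filter at 8, 3853 with median centring and 0 to 1544 with 1 array left out (1544 without WT 1, at most 9 without another), and adjusted p for Otx1 and Meis2 1440091_at rose to 0.349 with no filter. Without any 1 array other than WT 1, neither had an adjusted p under 0.0554, and Otx1 fell below the filter without OC1-KO 3. The closeness of the dimmer probe sets to background limits what they can show.

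Some small genotype differences changed sign. With quantile normalization Meis2 1457632_s_at was at 0.012, Meis2 1447861_x_at at 0.011, Sfrp2 at -0.031 and Atoh7 at -0.028. With median centring Six6 was at 0.027, Meis2 1457632_s_at at 0.028 and Ldb1 at 0.026. In the embryos numbered 1 and 2 alone Pax6 1419271_at was at -0.10, Rax at -0.032, Meis2 1457632_s_at at 0.20, Tle1 at 0.018, Sfrp2 at -0.14, Atoh7 at -0.0019 and Crx at 0.36. The mean of all kept Six3 probe sets was at -0.15. With 1 array left out, differences ran as follows. Pax6 1419271_at ran from -0.056 to 0.14, Rax from -0.10 to 0.18, Six3 1427523_at from -0.083 to 0.21, Six6 from -0.15 to 0.11 and Otx1 from -0.26 to 0.61. Meis1 1443260_at ran from -0.15 to 0.37, Meis2 1417129_a_at from -0.030 to 0.14, 1457632_s_at from -0.20 to 0.15, 1440091_at from -0.33 to 0.83 and 1447861_x_at from -0.37 to 0.43. Among list genes, Pbx2 ran from -0.24 to 0.12, Tle4 from -0.017 to 0.092, Tle1 from -0.22 to 0.11, Ldb1 from -0.19 to 0.17, Lmo4 from -0.19 to 0.060, Ccnd1 from -0.082 to 0.35, Sfrp2 from -0.21 to 0.19, Atoh7 from -0.12 to 0.20, Neurod1 from -0.019 to 0.32, Zic1 from -0.18 to 0.39, Otx2 from -0.068 to 0.20 and Crx from -0.23 to 0.22. Without a change of sign, Meis1 1450992_a_at ran from -0.14 to -0.0088, Pbx3 from -0.20 to -0.0054 and Vax2 from 0.063 to 0.41. The cause of these changes was not tested.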
